A study of Mus musculus with 6 samples.

Results

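The interferon-gamma-induced GTPases considered here are 10 genes, of 16426 gene rows in the series. They are 6 guanylate-binding proteins (Gbp2, Gbp2b, Gbp3, Gbp6, Gbp7 and Gbp11), 3 immunity-related GTPases (Irgm1, Igtp and Iigp1) and the transcription factor gene Irf1. The members were chosen by gene symbol from these families, with the authors' comparison already known, so their values in it are a description and carry no test. The series sequenced bulk liver RNA of 6 male C57/BL mice, 3 made fibrotic with 20% carbon tetrachloride (CCl4) over 10 weeks and 3 normal mice that received saline. CCl4 is a solvent that liver enzymes turn into toxic radicals. Per its design text, the study also had a group given CCl4 and the flavonoid didymin, which was not analysed here.

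The authors' deposited table compares 3 libraries called ly_A (set A) with 3 called ly_B (set B). No label ties either set to the CCl4 or the normal mice, so every difference is stated between the sets and none as an effect of CCl4. No header states the direction of the log2 fold change. It is read here as set A over set B because the names stand in that order. Columns of single libraries match no labelled sample and were not used, so no level, spread or read depth per library is given. The fold changes are the authors' fitted values, and how many reads lie behind a gene was not examined.

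Interferon-gamma is the cytokine of activated T and NK cells. It binds a receptor made of IFNGR1 and IFNGR2, which signals through the kinases JAK1 and JAK2. The signal reaches promoters through the gamma-activated site (GAS), and the induced factor IRF1 binds the interferon-stimulated response element (ISRE). Guanylate-binding proteins (GBPs) and immunity-related GTPases (IRGs) are among the most strongly induced products. They assemble on vacuoles of intracellular microbes and break them open, and the regulatory IRGs of the IRGM type, Irgm1 and Igtp (also named Irgm3) among them, keep effector IRGs such as Iigp1 (Irga6) inactive on the cell's own membranes.

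The promoter windows were not used to choose the members and are described first. RefSeq windows from 250 bases before to 50 bases after a transcription start (build GRCm38.p6) were found for 7 of the 10 members, namely Gbp2, Gbp2b, Gbp3, Gbp7, Irgm1, Igtp and Irf1. Entries for Gbp6, Gbp11 and Iigp1 were not used here. Windows were searched on both strands for the GAS letters TTCNNNGAA and the ISRE core letters, which are GAAA, any 2 bases, and GAAA again. ISRE letters stood in windows of 6 of the 7 genes (85.7%), against 3.92% of 11006 tested genes with a window. GAS letters stood in windows of 3 of the 7 (42.9%), against 8.45% of the tested genes. All 7 had at least one of the motifs, which 11.8% of the tested genes had. These matches describe letters in the windows and are not shown to be bound sites. The members come from families known as interferon-gamma-induced, and that signal acts through these motifs, so high shares could be foreseen from the choice. Gbp2, Gbp2b, Gbp3 and Gbp7 are related genes of the same cluster, so the 7 genes are not independent.

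The windows of Gbp2b and Gbp2 are shown because these neighbouring genes had the highest and the lowest value among the GBPs. Each holds 1 ISRE match, in capitals and read on the opposite strand. It begins 137 bases before the start in Gbp2b (chr3:142594597-142594896, plus strand) and 59 bases before it in Gbp2 (chr3:142620413-142620712, plus strand).
Gbp2b: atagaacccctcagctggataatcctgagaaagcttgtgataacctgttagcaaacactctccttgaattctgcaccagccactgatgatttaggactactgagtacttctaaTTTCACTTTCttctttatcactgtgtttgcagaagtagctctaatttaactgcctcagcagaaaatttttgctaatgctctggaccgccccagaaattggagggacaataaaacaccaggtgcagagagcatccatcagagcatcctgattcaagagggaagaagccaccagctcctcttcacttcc
Gbp2: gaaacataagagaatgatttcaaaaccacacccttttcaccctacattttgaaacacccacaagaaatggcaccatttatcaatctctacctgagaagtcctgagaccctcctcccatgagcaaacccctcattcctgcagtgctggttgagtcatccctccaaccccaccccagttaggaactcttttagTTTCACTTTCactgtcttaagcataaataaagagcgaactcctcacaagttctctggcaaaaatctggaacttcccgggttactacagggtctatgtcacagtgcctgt
The same letters, TTTCACTTTC, make up the match in both genes.

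The first of the windows of Irf1 (chr11:53769764-53770063, plus strand) is shown because Irf1 was the only one of these 7 members whose windows held GAS letters and no ISRE letters. The GAS match, in capitals, begins 90 bases before the start.
Irf1: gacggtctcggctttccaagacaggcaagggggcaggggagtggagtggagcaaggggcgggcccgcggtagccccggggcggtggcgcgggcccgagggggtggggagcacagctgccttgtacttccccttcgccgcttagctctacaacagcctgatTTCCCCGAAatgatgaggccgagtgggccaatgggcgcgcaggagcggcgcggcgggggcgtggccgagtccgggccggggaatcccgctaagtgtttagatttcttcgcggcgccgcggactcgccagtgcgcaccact

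Shorter stretches around the ISRE matches are shown for the other GBPs with a window and for Irgm1, with the ISRE letters in capitals. Gbp3 (chr3:142559995-142560018, plus strand) and Irgm1 (chr11:48871431-48871454, minus strand) each hold 2 matches that overlap. Gbp7 (chr3:142530279-142530296, plus strand) holds 1 ISRE match here and 2 GAS matches further before the start.
Gbp3: acagTTTCAGTTTCTATTTCccag
Gbp7: gcagTTTCAGTTTCagtt
Irgm1: tcaaGAAATAGAAACCGAAActga

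Igtp carries the GAS letters and the ISRE letters 2 bases apart, and a near-identical block stands in 3 other IRG genes of chromosome 11. The stretches are at chr11:58199503-58199531 (plus strand) for Igtp, chr11:58214894-58214922 (plus strand) for Irgm2, chr11:48992314-48992342 (minus strand) for Tgtp1 and chr11:49064273-49064301 (minus strand) for Tgtp2. GAS and ISRE letters are in capitals.
Igtp: ctagccatTTCTAGGAActGAAACTGAAA
Irgm2: ctagccatTTCCAGGAActGAAACTGAAA
Tgtp1: ctagccatTTCCAGGAAtcGAAACTGAAA
Tgtp2: ctagccatTTCCAGGAAtcGAAACCGAAA
Of the 29 bases, 25 were the same in all 4 genes, and Igtp and Irgm2 differed at 1 base. GAS letters followed after 2 bases by ISRE letters stood in 5 of all 32851 windows. The 5 genes were these 4 and Gm12185, which RefSeq also names Irgb2b1. This search was added after the windows had been read.

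**Figure D1:**
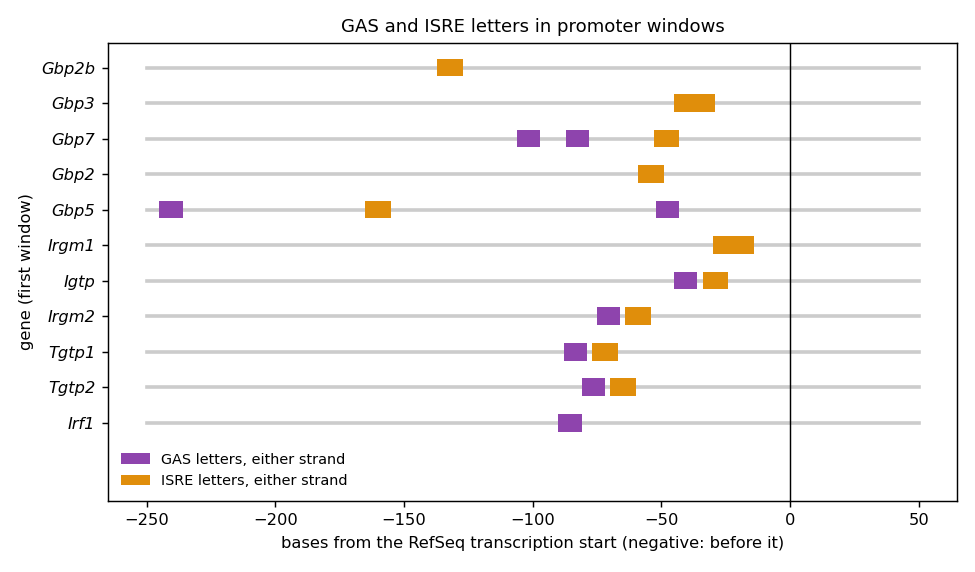
Position of GAS letters (purple) and ISRE letters (orange) in the first RefSeq promoter window of each gene, as bases from the transcription start; the grey line is the window. Igtp, Irgm2, Tgtp1 and Tgtp2 share a GAS and ISRE pair, while Gbp2, Gbp2b, Gbp3 and Irgm1 have ISRE letters alone and Irf1 has GAS letters alone.

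GBP transcripts stood higher in set A, by amounts that differed widely between genes. Gbp2b, also named Gbp1, had the largest difference of the members, 43.9-fold higher in set A with a log2 value of 5.46 in the authors' deposited table. It ranked 56 of 14114 tested genes from the set A end of the authors' deposited table. Gbp11, which RefSeq lists as a transcribed pseudogene, followed at 3.37 (10.4-fold) per the authors' deposited table. Gbp6 at 1.78, Gbp3 at 1.64 and Gbp7 at 1.22 lay between 2.32-fold and 3.42-fold in the authors' deposited table. Gbp2 was lowest among them, with 0.27 in the authors' deposited table, and was not called.

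Called means an adjusted p under 0.05 in the authors' deposited table. By that rule 7 of the 10 members were called higher in set A per the authors' deposited table, namely Gbp2b, Gbp3, Gbp6, Gbp7, Gbp11, Irgm1 and Irf1, where 18.1% of all tested genes were. Iigp1 was the 1 member called higher in set B by the authors' deposited table, where 17.7% of all tested genes were. Gbp2 and Igtp were not called in either direction. The comparison had a part in the choice of the members, so nothing is read from these counts. At an adjusted p under 0.01, or with a 2-fold difference as well, Irgm1 and Iigp1 were no longer called, and 6 members were left towards set A. The shares of all tested genes were then 12.3% towards set A and 12.7% towards set B at 0.01, and 10.9% and 7.85% with a 2-fold difference. Adjustment over every row kept the 8 calls, against 15.0% of all rows towards set A and 14.6% towards set B. The median log2 value of the 10 members was 1.12, computed from the authors' deposited table, and that of all tested genes was 0.07.

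**Figure D2:**
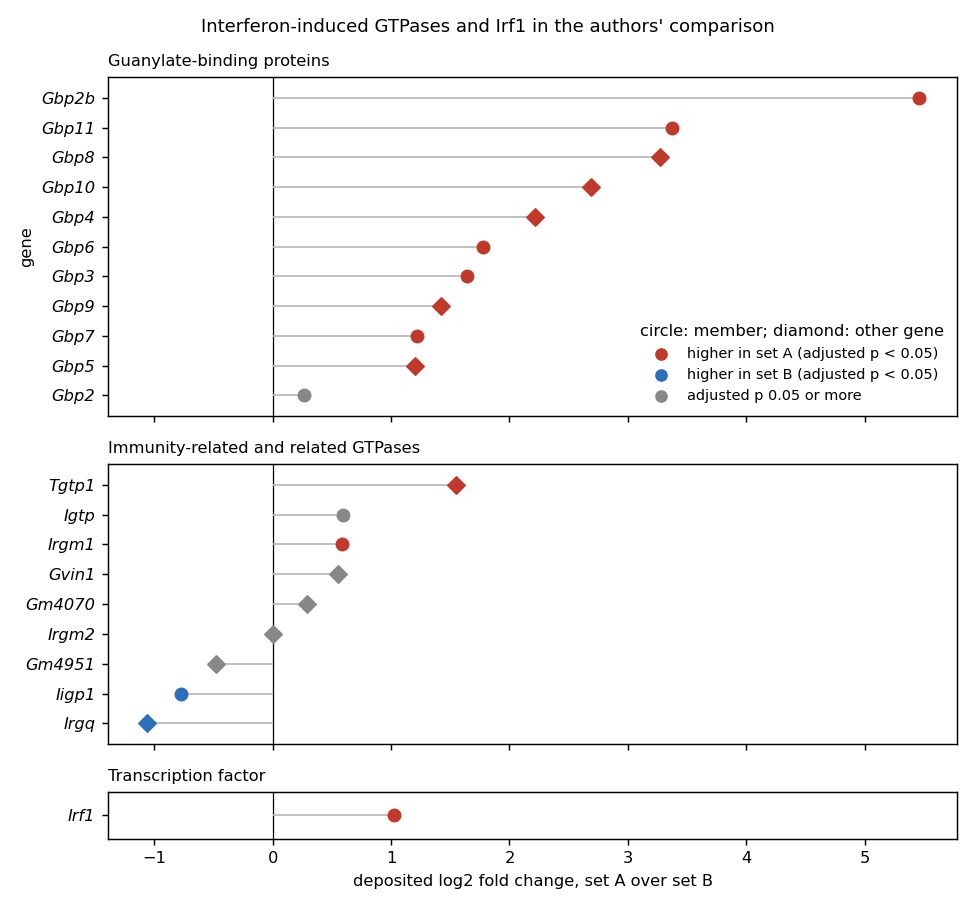
Log2 fold change of each GTPase gene and Irf1, set A over set B, from the authors' deposited table; circles are the 10 members, diamonds other genes of the families, and colours give the call. GBPs extend from 0.27 (Gbp2) to 5.46 (Gbp2b), while Iigp1 lies at -0.77 and Irgm2 at 0.00.

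The 5 GBP genes that are no members were all called higher in set A by the authors' deposited table. Gbp8 stood at 3.27 (adjusted p = 3.56e-09), Gbp10 at 2.69 (adjusted p = 0.0108) and Gbp4 at 2.22 (adjusted p = 1.86e-09) in the authors' deposited table. Gbp9, at 1.42 (adjusted p = 0.000479), and Gbp5, which promotes NLRP3 inflammasome assembly, 2.30-fold higher in set A (adjusted p = 0.0406), were the lowest of the 5 in the authors' deposited table. Of 11 GBP genes in all, 10 were thus called higher in set A, and Gbp2 was the exception. The counts of this and the later lists stand beside 18.1% of all tested genes called towards set A and 17.7% towards set B, and list medians beside 0.07 over all tested genes. The 5 other GBPs had a median of 2.22 in the authors' deposited table.

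GBP genes lie in a cluster on chromosome 3 and another on chromosome 5. On chromosome 5, all 6 were called higher in set A by the authors' deposited table, with a median of 2.45 and a range of 1.42 to 3.37. On chromosome 3, 4 of 5 were called by the authors' deposited table, with a median of 1.22 and a range of 0.27 to 5.46. Gbp2b and Gbp2 are next to each other on chromosome 3 and had its highest and lowest values. The difference between the clusters was not tested.

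Genes beside the GTPase loci were called in both directions. The 3 nearest protein-coding genes with a row on each side of a locus were taken for this, a choice made after the values of the GBPs were seen, and those called are named for that reason. Their counts stand beside the same 18.1% and 17.7% of all tested genes, and nothing particular to these loci is read from them. Beside the chromosome 3 cluster, 4 of the 6 were tested, and the kinase gene Pkn2 was the only one called, at -0.70 per the authors' deposited table (adjusted p = 0.00229). Beside the chromosome 5 cluster, all 6 were tested, and 1 was called in each direction. These were the volume-regulated anion channel subunits Lrrc8c at 1.67 (adjusted p = 0.000379) and Lrrc8d at -1.45 (adjusted p = 1.53e-06), per the authors' deposited table. On chromosome 11, beside the stretch from Irgm1 to the Tgtp genes, 4 were tested and 1 was called, the butyrophilin-like gene Btnl9, higher in set A at 1.28 (adjusted p = 0.000796) in the authors' deposited table. Beside Igtp and Irgm2 all 6 were tested, and 2 were called higher in set A by the authors' deposited table, the zinc finger gene Zfp692 at 1.54 (adjusted p = 0.000219) and Cnot8, a deadenylase subunit, at 0.62 (adjusted p = 0.00885).

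**Figure D3:**
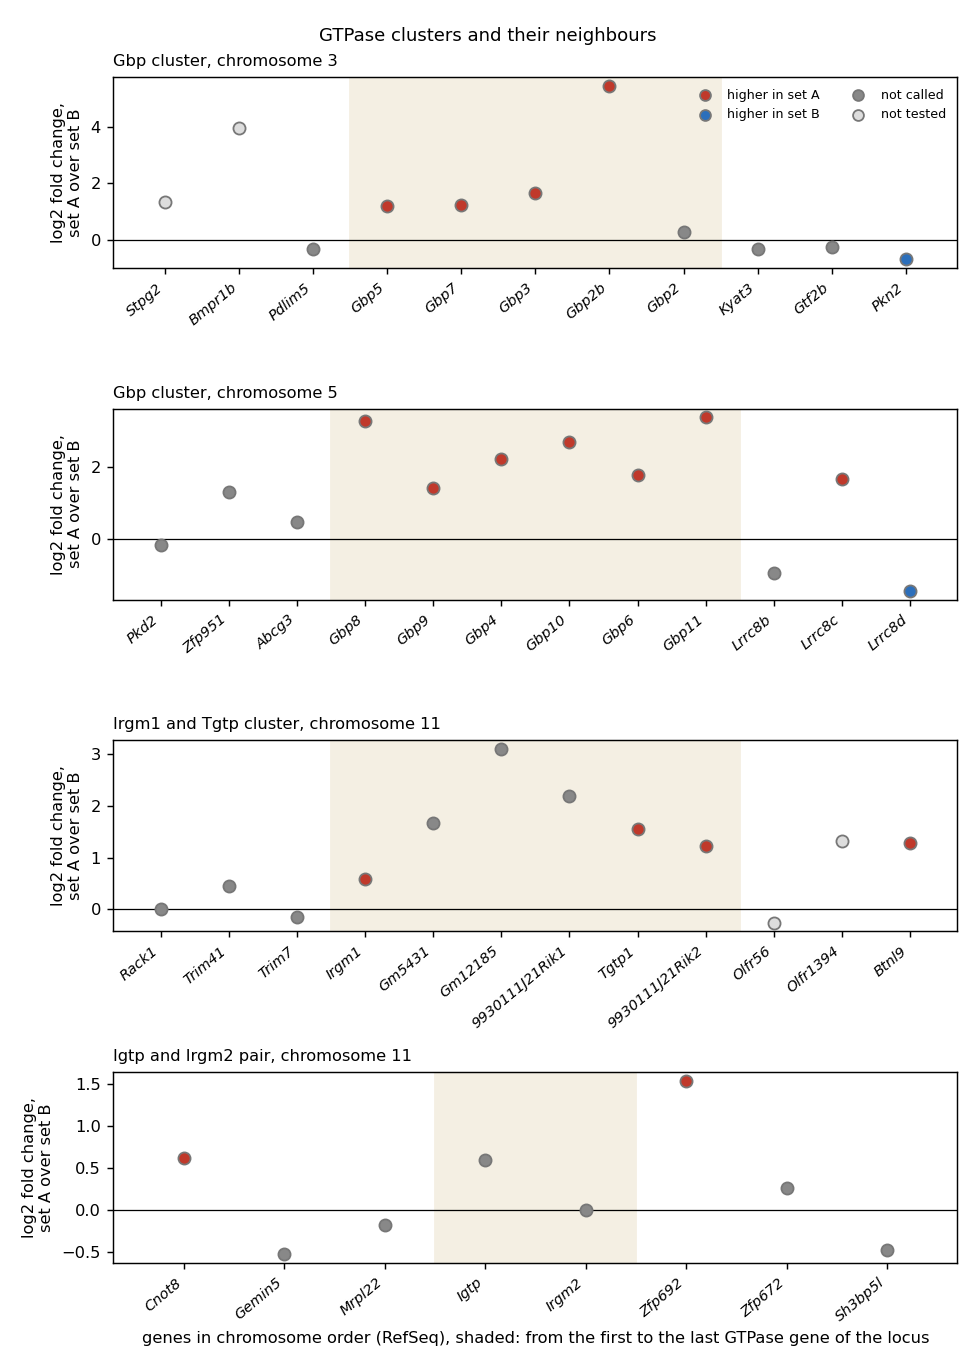
Log2 fold change, set A over set B, of the GTPase clusters (shaded) and 3 neighbouring genes on each side, in chromosome order. Pale points are genes treated here as not tested. In the chromosome 5 cluster all 6 GBPs lie above 1.4, and Lrrc8d to their right lies at -1.45.

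The authors' read counter is not given in the sources used here, so reads from near-identical copies may have been split, dropped or counted more than once. Of the 50-base words in Gbp6 transcripts (GENCODE M21), 70.7% also stood in another gene, mostly the annotated gene Gm43302. Gbp10, for its part, shared 73.3% of its words with Gbp6. Single values of Gbp6 and Gbp10 are therefore uncertain. For Gbp2b and Gbp2, the shared portion was small, at 1.84% and 2.03%, and each shared these words with the other. Shares were 19.2% in Gbp11, 12.7% in Gbp7, 11.8% in Igtp (with Irgm2), 3.75% in Gbp3, 1.69% in Iigp1, 1.24% in Irf1 and 0.379% in Irgm1.

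**Figure D4:**
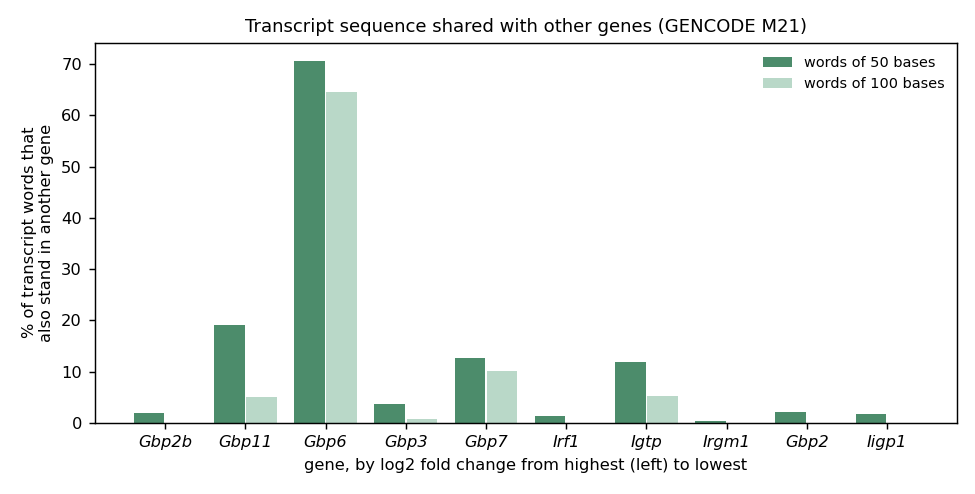
Percentage of each member's transcript words of 50 bases (dark) and 100 bases (pale) that also stand in a transcript of another gene. Gbp6 stands apart at 70.7% and 64.5%, and Gbp2b, the gene with the largest fold change, is at 1.84% and 0%.

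IRG genes lay on both sides of 0. Irgm1, a regulatory IRG, was higher in set A at a log2 value of 0.58, and Igtp had the similar value of 0.59 without being called, in the authors' deposited table. The effector Iigp1 lay the other way, at -0.77, or 1.71-fold higher in set B, per the authors' deposited table. Of 6 other IRGs and related GTPases tested, 1 was called in each direction in the authors' deposited table, and their median was 0.15. Among them, Gvin1 and Gm4070 shared 99.2% and 97.8% of their 50-base words with other genes, mostly each other, so their single values are uncertain. Tgtp1 (Irgb6), an effector, was higher in set A at 1.55 (adjusted p = 0.00412), and Irgq, a divergent IRG-like gene, was higher in set B at -1.06 (adjusted p = 0.000119) in the authors' deposited table.

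Irgm2, the neighbour of Igtp with the promoter block that differs from it at 1 base, was at 0.00 (adjusted p = 0.993) in the authors' deposited table. Tgtp1, with a block that differs from that of Igtp at 3 bases, was called. Thus 4 tested genes with the block, Igtp, Irgm2, Tgtp1 and Gm12185, held 1 call in the authors' deposited table. Tgtp2 has no value here, and 81.2% of the words of Tgtp1 also stood in another gene, mostly Tgtp2, so the value of Tgtp1 may include reads of that copy.

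Irf1 was higher in set A by 2.04-fold (log2 1.03) in the authors' deposited table. A list of 11 genes holds the other interferon regulatory factors, the IRF2-binding proteins Irf2bp1 and Irf2bp2, and the AP-1 family gene Batf2. In the authors' deposited table it had 4 calls towards set A and 0 towards set B (median 0.73), and all 4 were interferon regulatory factors. Irf7, the main amplifier of type I interferon, stood at 1.36 (adjusted p = 0.000358), Irf2, which competes with IRF1 for its sites, at 0.88 (adjusted p = 0.00115), and Irf8, a macrophage and dendritic cell factor, at 0.81 (adjusted p = 0.0282) in the authors' deposited table. The fourth was Irf3. Irf9, the DNA-binding subunit of the type I interferon complex, was not called at 0.17 (adjusted p = 0.587) in the authors' deposited table.

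The signalling genes upstream of the GTPases were called in both directions. Of 14 tested, 2 were called towards set A and 5 towards set B by the authors' deposited table, with a median of -0.39. Both receptor chains were higher in set B, Ifngr1 at -1.12 (adjusted p = 0.000118) and Ifngr2 at -1.10 (adjusted p = 3.84e-05), per the authors' deposited table. The kinase Jak1 lay at -0.54 (adjusted p = 0.00497) and the phosphatase Ptpn11 at -1.46 (adjusted p = 3.58e-07) in the authors' deposited table. The fifth towards set B was Stat3, and those towards set A were Stat2 and the phosphatase Ptpn6.

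Some central nodes were not called. Jak2 stood at -0.47 (adjusted p = 0.101) and the feedback inhibitor Socs1 at 1.19 (adjusted p = 0.11) in the authors' deposited table. Ifng, the ligand, has an adjusted p of exactly 1 in the authors' deposited table and was treated as not tested. Its log2 value in the authors' deposited table is 3.12, towards set A, and nothing is read from it. Both receptor genes were thus called towards set B. Of the 9 GTPase members, 8 had values above 0, Gbp2 and Igtp among them without a call. Of 14114 tested genes, 7488 had values above 0. The members were chosen with these values known, and no test of receptors against members was made.

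Of 23 tested other genes induced by interferon-gamma, 11 were called towards set A and 1 towards set B by the authors' deposited table (median 0.93). The list was split after the values were seen. Of 10 genes of class I antigen presentation and its activator, 9 were called towards set A and 0 towards set B by the authors' deposited table (median 1.15). Of the other 13 tested genes, 2 were called towards set A and 1 towards set B by the authors' deposited table (median 0.20). The immunoproteasome subunits Psmb9 at 2.41 (adjusted p = 3.46e-10), Psmb8 at 1.69 (adjusted p = 3.93e-09) and Psmb10 at 1.44 (adjusted p = 1.9e-08) had the largest called values in the authors' deposited table. The lowest of the 11 were Tap1, a peptide transporter subunit, at 0.96 (adjusted p = 0.000596) and Nlrc5, the class I transactivator, at 0.93 (adjusted p = 0.00052) in the authors' deposited table.

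The remaining 2 calls towards set A were the T cell attractant Cxcl9, at 1.25 (adjusted p = 0.015), and the class II transactivator Ciita, at 1.32 (adjusted p = 0.0251), in the authors' deposited table. Cxcl10, which type I interferon also induces, was not called at -0.49 (adjusted p = 0.481) in the authors' deposited table. The 1 gene called towards set B was the tryptophanyl-tRNA synthetase Wars, at -0.86 (adjusted p = 0.000302) in the authors' deposited table. Wars falls outside the rule for named genes and was chosen after its value was seen.

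Type I interferon genes, which are induced through ISRE sites, were called towards set A or not at all. Of 20 tested, 9 were called towards set A and 0 towards set B by the authors' deposited table (median 0.93). The 3 largest were Oas2 at 1.94 (adjusted p = 0.000162), Mx1 at 1.88 (adjusted p = 0.0103) and Ifit3 at 1.70 (adjusted p = 0.000297) in the authors' deposited table. ISRE letters stood in windows of 8 of 13 genes of this list that have a window (61.5%), and GAS letters in 2 (15.4%).

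Cytokines that drive interferon-gamma production, with their receptors, had 3 calls towards set A and 0 towards set B among 9 tested genes of the authors' deposited table (median 0.92). Il15ra, which presents interleukin-15 to NK and T cells, stood at 2.63 (adjusted p = 4.76e-26), Il18 at 1.95 (adjusted p = 6.09e-08) and its soluble inhibitor Il18bp at 0.92 (adjusted p = 0.0338) in the authors' deposited table. Inflammasome genes, some of which act after GBPs open a bacterial vacuole, had 3 calls towards set A and 2 towards set B among 11 of the authors' deposited table (median 0.74). Naip5 at 1.97 (adjusted p = 0.000544), Casp1 at 1.92 (adjusted p = 6.5e-05) and Dhx15 at -1.05 (adjusted p = 2.58e-06) had the largest values in the authors' deposited table.

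GBPs and IRGs need the machinery that attaches ATG8 proteins to membranes to find their target vacuoles. A list of 14 genes of this machinery, the ATG8 proteins themselves and autophagy receptors had, in the authors' deposited table, 4 calls towards set A and 2 towards set B (median 0.18). The receptor gene Calcoco1 at 1.29 (adjusted p = 3.91e-08), the conjugation enzyme gene Atg10 at 1.19 (adjusted p = 0.0172) and Map1lc3b, which encodes an ATG8 protein, at 0.88 (adjusted p = 0.000231) had the largest values among the calls towards set A in the authors' deposited table. The 2 calls towards set B were the receptor gene Sqstm1 at -0.81 (adjusted p = 0.0227) and the conjugation gene Atg12 at -0.73 (adjusted p = 0.0104) in the authors' deposited table. Among the other conjugation genes, Atg5 and Atg7 were not called, at 0.05 (adjusted p = 0.869) and -0.05 (adjusted p = 0.864) in the authors' deposited table. Sqstm1, Atg12, Atg5 and Atg7 fall outside the rule for named genes.

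**Figure D5:**
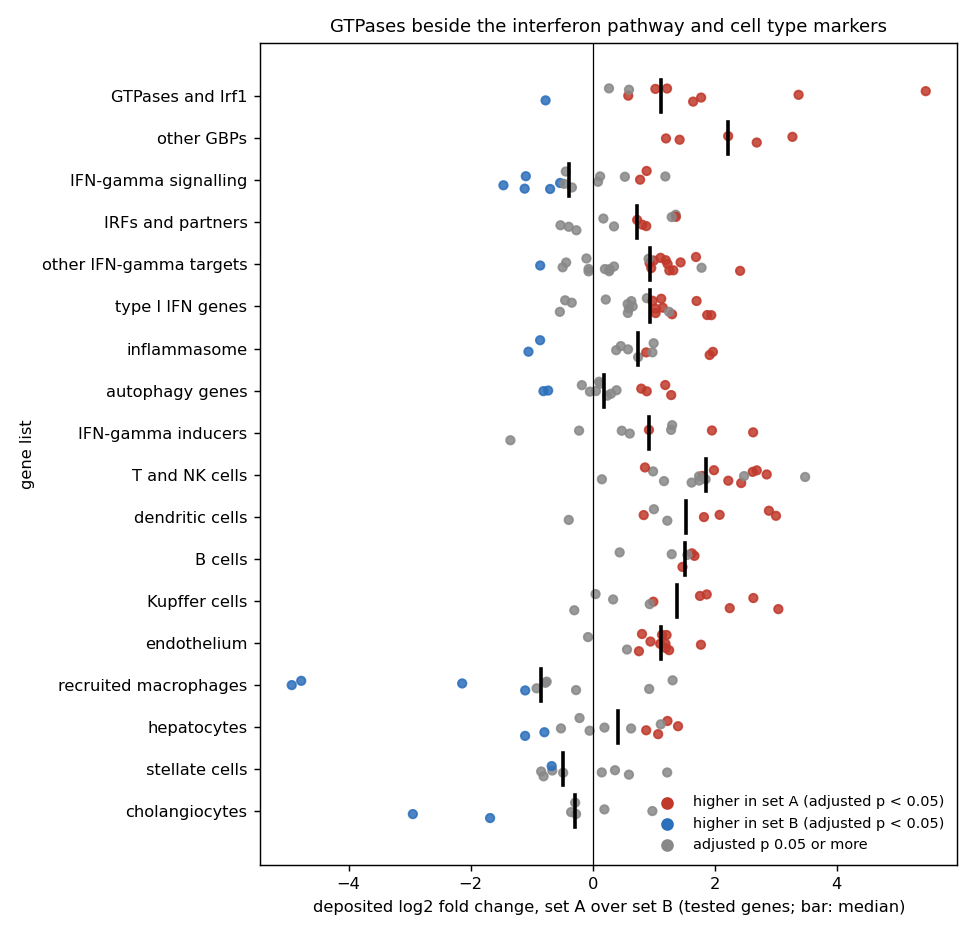
Log2 fold change, set A over set B, of tested genes in each list, from the authors' deposited table; each point is a gene, coloured by its call, and the bar is the list's median. The GTPases and Irf1 have a median of 1.12, IFN-gamma signalling genes one of -0.39 and T and NK cell markers one of 1.85.

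In bulk liver, fewer cells of a type and less RNA per cell cannot be told apart. Called markers of T and NK cells, dendritic cells, Kupffer cells, endothelium and B cells all lay towards set A. Those of recruited macrophages and cholangiocytes, and the 1 called stellate cell marker, lay towards set B. Uncalled markers of recruited macrophages, cholangiocytes and stellate cells had values on both sides of 0. Hepatocyte markers were called in both directions. A link between any of these cell types and the GBP values was not tested. Among T and NK cell markers, 8 of 17 tested were called towards set A and 0 towards set B by the authors' deposited table, and all 17 log2 values were above 0 (median 1.85). The cytotoxic granule genes Prf1 at 2.85 (adjusted p = 0.0084), Gzmb at 2.69 (adjusted p = 0.000112) and Gzma at 2.62 (adjusted p = 0.00469) were the largest called ones in the authors' deposited table.

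Dendritic cell markers had 5 calls towards set A and 0 towards set B among 8 in the authors' deposited table, with Xcr1 8.02-fold higher in set A (adjusted p = 0.0123), Cd209a at 2.89 (adjusted p = 0.00192) and Clec9a at 2.08 (adjusted p = 1.13e-05). Kupffer cell markers had 6 and 0 among 10 in the authors' deposited table, with Timd4 at 3.04 (adjusted p = 2.6e-09), Clec4f at 2.63 (adjusted p = 5.77e-13) and Folr2 at 2.24 (adjusted p = 2.44e-06). Endothelial markers had 10 and 0 among 12 in the authors' deposited table, with Stab2 at 1.77 (adjusted p = 2.18e-17), Kdr at 1.25 (adjusted p = 5.25e-06) and Oit3 at 1.21 (adjusted p = 3.59e-05). B cell markers had 3 and 0 among 6, with Cd79a at 1.62 (adjusted p = 0.0133) and Cd79b at 1.47 (adjusted p = 0.0367) in the authors' deposited table.

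Called markers of recruited macrophages lay the other way, with 0 calls towards set A and 4 towards set B among 10 in the authors' deposited table. Of the 10, 8 had values below 0 and 2 above it. Those above 0, Ly6c2 at 1.31 (adjusted p = 0.142) and S100a8 at 0.92 (adjusted p = 0.254), were not called in the authors' deposited table. Gpnmb at -4.93 (adjusted p = 1.24e-36), Chil3 at -4.78 (adjusted p = 1.12e-11) and Itgam at -2.14 (adjusted p = 0.000411) were the largest in the authors' deposited table. Cholangiocyte markers had 0 and 2 calls among 7, Cldn4 at -2.95 (adjusted p = 0.000465) and Sox9 at -1.68 (adjusted p = 1.54e-13), in the authors' deposited table. Stellate cell markers had 0 and 1 among 9, Pdgfrb at -0.67 (adjusted p = 0.00842), while Lrat did not pass at -0.81 (adjusted p = 0.0652) in the authors' deposited table. This 1 call stands beside 17.7% of all tested genes called towards set B, and 4 of the 9 had values above 0. No direction is read for stellate cells.

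The labelled tissue is liver, and all 12 hepatocyte markers were tested. They had 4 calls towards set A and 2 towards set B per the authors' deposited table, with Apoa2 at 1.40 (adjusted p = 2.46e-07), Apoa1 at 1.22 (adjusted p = 0.00029) and Fga at -1.11 (adjusted p = 0.000137). Their levels were not examined. Medians computed from the authors' deposited table were 1.52 for dendritic cell, 1.51 for B cell, 1.37 for Kupffer cell and 1.12 for endothelial markers. They were 0.41 for hepatocyte, -0.29 for cholangiocyte, -0.49 for stellate cell and -0.85 for recruited macrophage markers. The part of any cell type's markers in the GTPase values was not tested, and summed marker levels per library are not given because those columns were not used.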

How the data were processed

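Bulk liver RNA of 6 mice was sequenced. Per the labels' protocols, Trizol served for RNA extraction and a NEBNext kit for the libraries. Per the submitters' processing notes, DESeq2 (no version) and build mm9 were used; which aligner, counter and annotation they used is not given in the sources used here. Values deposited by the authors are a log2 fold change, a p-value and an adjusted p-value per gene for set A against set B, 3 libraries each. Another 18 columns of single libraries match no label and were not used, so the planned count model was not run and depth is not given. Of 16426 rows, 2312 carry an adjusted p of 1 and were treated as not tested; over the other 14114, Benjamini-Hochberg adjustment of the deposited p gave the deposited adjusted p (relative difference up to 9.47e-13).

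A gene was called at a deposited adjusted p under 0.05; these p-values reflect only the spread between libraries, which may be technical. The members and 18 other gene lists were chosen with earlier results of these data known. Of 229 listed symbols, 219 had a row, 1 of them by a RefSeq synonym (Trf for Tf), and Spp1 stands in both the cholangiocyte and the recruited macrophage list. Named genes are the members, 25 genes fixed by name, and per list the 3 called genes with the largest difference, or the 2 with the smallest p where fewer than 2 were called. A few of the genes so named are left out here. Gene order came from RefSeq (GRCm38.p6), promoter windows likewise, and transcript words from GENCODE M21; no coordinate was joined to mm9. Alternatives were a threshold of 0.01, an added 2-fold minimum, adjustment over every row, wider motif spacing and, added after seeing the data, words of 100 bases. Python 3.11.15, numpy 2.4.6 and pandas 2.3.3 were used, and adjustment and motif search were tested on simulated data.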

Additional observations from a re-analysis of the deposited data

How the results depend on the processing

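No paired analysis was possible because the labels' replicate numbers could not be tied to columns of the table; leaving out replicates, DESeq2 and a filter on low counts were not run for the same reason. Adjusting over every row of the table changed no member's call, and the 8 called members were the same. At a threshold of 0.01, 6 of the 8 remained called, and likewise with a 2-fold minimum added; Irgm1 (0.58) and Iigp1 (-0.77) were lost, which left 0 members higher in set B. At an adjusted p under 0.01, calls higher in set A were 3 for other GBPs, 3 for type I interferon genes, 2 for autophagy genes (Map1lc3b and Calcoco1), 4 for T and NK cells, 0 for B cells and 2 for dendritic cells; calls higher in set B were 0 for autophagy genes and 1 for the inflammasome. With a 2-fold difference as well, the shares of all tested genes were 10.9% towards set A and 7.85% towards set B. Calls higher in set A were then 0 of 14 interferon-gamma signalling genes and 2 of 14 autophagy genes. The list of interferon regulatory factors had 1 of 11. Calls higher in set B were 3 of 14 signalling genes, 0 of 23 other interferon-gamma targets and 0 of 14 autophagy genes. They were 1 of 11 inflammasome genes, 1 of 12 hepatocyte markers and 0 of 9 stellate cell markers. Nothing particular to a list is read from these counts. These rules are stricter by construction. With wider spacing of the letters (1 base more within GAS or 1 base less within ISRE), GAS letters stood in 4 and ISRE letters in 6 of the 7 members with a window. The shares of all tested genes with a window were then 14.2% for GAS and 6.53% for ISRE. Words of 100 bases lowered the shared portion of every member, to 64.5% in Gbp6 and 0% in Gbp2b. Without read depth, a large fitted fold such as that of Gbp2b cannot be set against a count floor.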

Other observations

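The chromosome 11 stretch from Irgm1 to the last Tgtp gene holds further IRG genes outside the lists, looked at after their values were seen. Of these, 9930111J21Rik2 (Irgb5 in RefSeq) was called higher in set A at 1.22 (adjusted p = 0.00531) in the authors' deposited table. Gm12185 at 3.09 (adjusted p = 0.123), 9930111J21Rik1 at 2.18 (adjusted p = 0.0796) and Gm5431 at 1.67 (adjusted p = 0.0563) were not called in the authors' deposited table. All 6 genes with a row in this stretch had log2 values above 0, as did 7488 of all 14114 tested genes. Tgtp1 shared words with Gm12185, so values in this stretch may rest in part on the same reads. Igtp and Irgm2, in a separate stretch of the same chromosome, lay at 0.59 and 0.00 in the authors' deposited table.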
